A study of Mus musculus with 4 samples.

Results

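The genes described here encode the proteins of the cytoplasmic ribosome. They were chosen by name: every gene of the deposited expression table called Rps or Rpl (with p for the stalk proteins) plus a number and at most 1 of the letters a, x, l or y, and Rpsa. The rule took 83 of the 55335 genes counted, 32 of the small and 51 of the large subunit. Of these, 7 carry a final l, which marks a paralog of another member (Rpl3l, Rpl6l, Rpl10l, Rpl32l, Rpl39l, Rps4l and Rps27l). The other 76 are the main genes. The rule leaves out a few other ribosomal protein genes, such as Rps3a1, Rack1 and Fau, which encodes a fusion protein.

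Poly(A) RNA came from spermatogonial stem cells (SSCs) of the mouse, germ cells that renew themselves and give rise to sperm, grown in culture. The cells came from testes of C57/BL6*DBA2 mice at postnatal day 10, were passaged every 5 to 10 days and were gathered by FACS. There were 2 wild-type (WT) libraries, replicates 1 and 2, and 2 libraries of Tex11PM/Y cells, called A and B. Where 4 values are given in a row, they follow the order WT replicate 1, WT replicate 2, library A, library B. Tex11 is an X-linked gene that acts in meiosis. What PM stands for and how the allele was made are not given in the labels, nor whether the 2 libraries of each genotype are from different animals or cultures. The p-values therefore measure only the spread between these libraries, which may be technical.

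A ribosome holds a single copy of nearly every one of these proteins, so their mRNAs are made at high and similar levels in growing cells. Most of these mRNAs begin with a run of pyrimidines, the 5′ terminal oligopyrimidine (TOP) motif, through which the growth kinase complex mTORC1 and the RNA-binding protein LARP1 set their translation and stability. In the testis, some main genes sit on the X chromosome, which is silenced in meiosis, and autosomal retrocopies such as Rpl10l and Rpl39l serve male germ cells.

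Total counts were between 19047148 and 19804951 per library, and no 2 libraries agreed within sampling noise. Tex11 itself stood at 66.4, 126, 22.7 and 9.32 CPM (counts scaled by TMM library sizes). Of 18 SSC marker genes, none was at 0 in any library, and their summed level ran from 3982 to 4522 CPM. Fibroblast markers differed far more. Their 18 genes summed to 18911, 5456, 580 and 6730 CPM.

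The start regions of 7 members are shown first, because the sequence features this gene set is known for lie in such regions. Each holds 40 bases before and 30 bases from the annotated start, 5′ to 3′ on the transcribed sense strand. They come from RefSeq's table for GRCm38.p6, in which 61 of the 83 members were found. Capitals mark the longest run of at least 8 C or T bases. Rpl39, Rps27 and Rps4x had the lowest fitted values among the main genes, Rpl7a had the longest run, Rpl5 stayed level across libraries, and Rpl39l and Rpl10l are paralogs of X-linked members. Their positions, in that order, are chrX:37085193-37085262 (minus strand), chr3:90213619-90213688 (minus), chrX:102189362-102189431 (minus), chr2:26910767-26910836 (plus), chr5:107900488-107900557 (plus), chr16:10170188-10170257 (plus) and chr12:66284372-66284441 (minus).
Rpl39: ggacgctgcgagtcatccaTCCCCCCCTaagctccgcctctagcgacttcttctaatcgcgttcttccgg
Rps27: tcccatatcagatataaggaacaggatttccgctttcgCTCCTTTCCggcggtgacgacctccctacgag
Rps4x: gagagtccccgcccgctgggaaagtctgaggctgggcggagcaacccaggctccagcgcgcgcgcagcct
Rpl7a: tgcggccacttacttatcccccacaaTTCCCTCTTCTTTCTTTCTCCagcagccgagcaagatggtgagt
Rpl5: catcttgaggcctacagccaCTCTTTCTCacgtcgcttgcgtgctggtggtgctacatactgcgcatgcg
Rpl39l: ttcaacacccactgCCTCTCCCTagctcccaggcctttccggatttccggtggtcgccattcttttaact
Rpl10l: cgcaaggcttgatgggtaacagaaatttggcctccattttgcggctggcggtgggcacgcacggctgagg

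Rps4x and Rpl10l have no such run in this window. Relative to the annotated start, the marked runs of Rpl39, Rpl5 and Rpl39l lie wholly before it, at -21 to -13, -20 to -12 and -26 to -18. Those of Rps27 and Rpl7a span it. Runs were marked and counted anywhere in the window, so a run need not be a TOP motif. The annotated start lies 180 bases inside the Rpl39 gene of the count table and 43 and 26 bases inside those of Rpl7a and Rpl5, so the window may miss the start used in these cells. A run of at least 8 pyrimidines was present in 39 of 61 members (63.9%) and in 29.9% of 27025 genes of the table. On the other strand, as a run of A or G, it was present in 18.03% of members and 32.2% of genes. The motif CCGGAAG, which ETS factors such as GABPA recognise, was searched on both strands from 250 bases before to 50 after the start. It was present in 25 members (41.0%) and in 9.93% of genes. Its reverse complement, as in the last bases printed for Rpl39, contains pyrimidines that can overlap a run. The fitted log2 fold change, Tex11PM/Y over WT, had a median of -0.72 in the 38 fitted members with a run and of -0.75 in the 21 without.

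Ribosomal protein mRNAs were among the most abundant of these cells. FPKM, a level scaled to transcript length and library size that allows genes to be compared, had a median over the 83 members of 1058, 668, 436 and 655. The main genes ran from 179 to 3077 FPKM in WT replicate 1 and from 88.5 to 1259 in library A. The levels of members relative to each other were similar between libraries. Over the 76 main genes, Pearson's r of log2 FPKM between libraries lay between 0.907 and 0.972, a description across genes that share their libraries. Rps2, at the mRNA entry channel, ranked first. Its level was 3077, 1971, 1245 and 2364 FPKM. Rplp1, an acidic stalk protein, followed with 2898, 1774, 1211 and 1848 FPKM. Rps14 had 3017, 1518, 891 and 1565 FPKM. Rps18 had 2572, 1480, 949 and 1416 FPKM. The most abundant large subunit genes after Rplp1 were Rpl13, with 2902, 1337, 886 and 1444 FPKM, and Rpl8, with 2293, 1509, 887 and 1524 FPKM. All 6 genes were highest in WT replicate 1 and lowest in library A, with WT replicate 2 and library B between them.

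**Figure D1:**
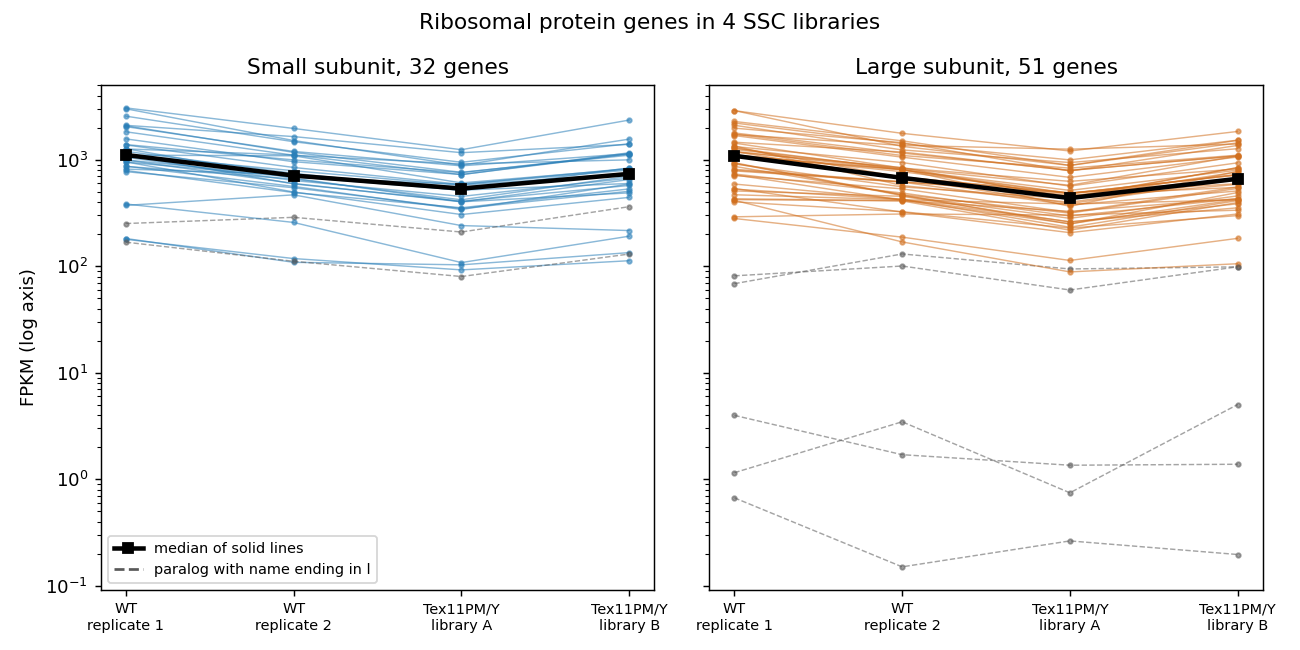
FPKM (log axis) of the 32 small subunit and 51 large subunit genes in each of the 4 libraries. Thin lines are single genes, dashed where the name ends in l, and squares are the median of the solid lines; most lines are highest in WT replicate 1 and lowest in Tex11PM/Y library A.

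That order held for nearly the whole set. In CPM, WT replicate 1 was above and library A below both other libraries for 73 of the 81 members that passed the filter on low counts (21.3% of all 17262 genes tested). WT replicate 1 was the highest library for 74 members (34.2% of all genes) and library A the lowest for 77 (34.4%). Libraries of the same genotype thus differed from each other. The median member was 0.76 log2 higher in WT replicate 1 than in WT replicate 2, and 0.54 log2 lower in library A than in library B. WT replicate 2 and library B, which are of different genotypes, were the closest, with a median difference of 0.07 log2. Of 81 members, 52 were higher in WT replicate 2 (50.8% of all genes). These 2 libraries were also the closest pair over all but the lowest counted genes, so this is not particular to the members. The chi-square of counts per degree of freedom, which rises as libraries differ, was 18.6 for them. It was 86.0 to 217 for the other pairs. Over all genes tested, the median difference between any 2 libraries was at most 0.02 log2 in size. TMM scaling is built to keep that difference small, so it does not show that the libraries were otherwise alike.

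Ribosomal protein genes took 8.94%, 5.74%, 3.87% and 5.51% of the counts. In the deposited TPM, which corrects for the members' short transcripts (median 963 bases, against 2997 for the genes tested), the shares were 22.8%, 16.7%, 12.4% and 15.8%. On both scales the 2 WT values lay above the 2 Tex11PM/Y values, by little between WT replicate 2 and library B. With 2 libraries against 2, an exact two-sided permutation test cannot give a p below 0.333.

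**Figure D2:**
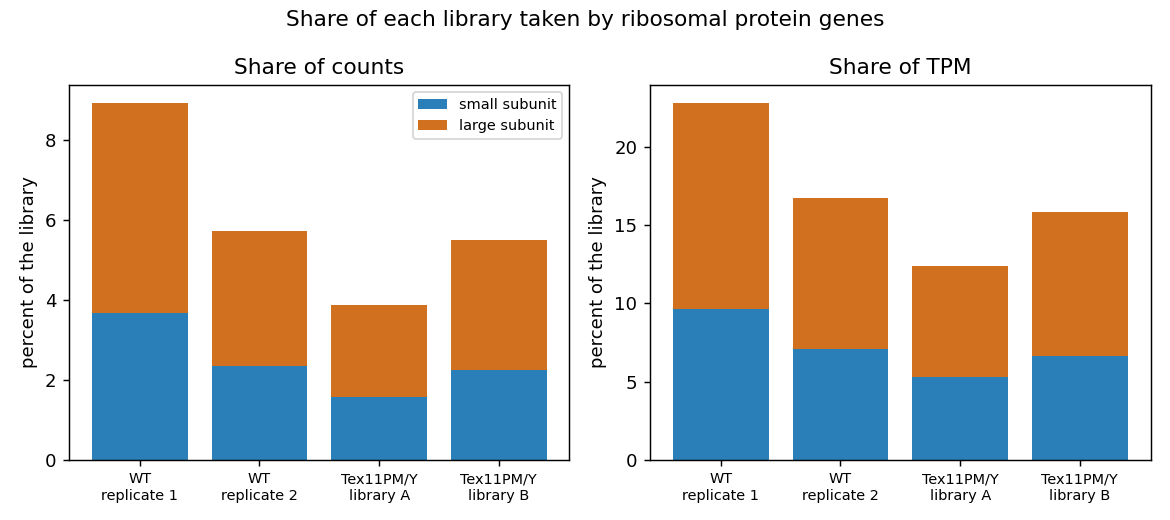
Percent of each library taken by small and large subunit genes, as counts (left) and as TPM (right), in stacked bars from 0. WT replicate 1 is highest at 8.94% of counts and 22.8% of TPM, and Tex11PM/Y library A lowest at 3.87% and 12.4%.

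The fitted difference between genotypes was lower in Tex11PM/Y for 79 of 81 members (49.0% of all genes), but no single member passed the threshold. The median log2 fold change was -0.74, a level 1.67-fold higher in WT, with a middle range of -0.85 to -0.63. Over all genes tested the median was 0.01. In edgeR's quasi-likelihood test with Benjamini-Hochberg adjustment over all genes, 0 members and 0 of 17262 genes (0%) passed an adjusted p of 0.05, and the smallest adjusted p of a member was 0.884. DESeq2 called 0 members too. At an unadjusted p of 0.05, edgeR took 6 members, all lower in Tex11PM/Y (1.71% of all genes were lower at that level, and 2.70% differed in either direction): Rpl39, Rps29, Rps27, Rps4x, Rpsa and Rpl37. Both Tex11PM/Y libraries were below both WT libraries for 50 of 81 members in CPM (16.3% of all genes), and both were above for 0 members (16.1%).

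The size of the difference rested on the libraries at the ends. Without WT replicate 1 the median of the members was -0.34 log2, and without library A it was -0.49. Without WT replicate 2 it was -1.09, and without library B -1.11. Fibroblast markers followed a similar order of libraries: all 18 were fitted lower in Tex11PM/Y, and their sum was highest in WT replicate 1 and lowest in library A, with none at 0 in any library. The 12 macrophage markers summed to 739, 549, 27.0 and 1297 CPM. The 6 peritubular myoid markers summed to 195, 34.6, 7.50 and 32.0 CPM. The 11 Sertoli markers summed to 70.0, 89.2, 34.4 and 69.2 CPM. Markers of later germ cells had the reverse order only as a sum. Their 7 genes summed to 126, 207, 385 and 160 CPM, lowest in WT replicate 1 and highest in library A. Of the 4 in the fit, however, 3 were fitted lower in Tex11PM/Y. In the 4 libraries, 2, 0, 1 and 2 of the 7 genes were at 0. The 6 endothelial markers summed to 19.9 to 21.3 CPM, and the 6 Leydig markers to 9.91 to 15.96 CPM. The part of these cell types in the ribosomal protein result was not tested. In bulk RNA, fewer cells of a type and less RNA of a gene per cell cannot be told apart.

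**Figure D3:**
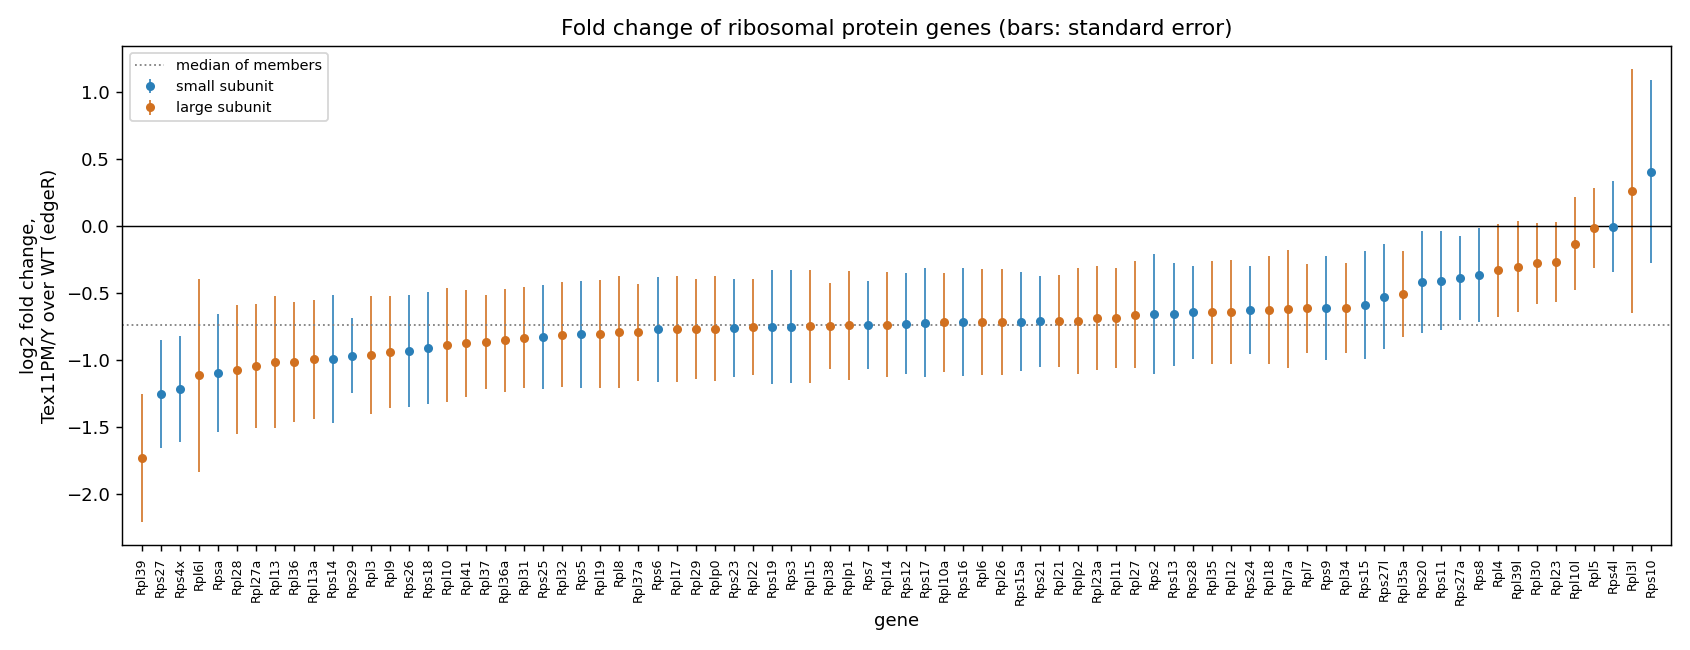
Fitted log2 fold change, Tex11PM/Y over WT, of ribosomal protein genes in rising order (1 of the 81 in the fit is not drawn), with bars of 1 standard error from edgeR; blue is the small and orange the large subunit. The dotted line is the members' median of -0.74, and only Rpl3l and Rps10 lie above 0.

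Small and large subunit genes had similar medians. The median log2 fold change was -0.72 over 32 small subunit genes and -0.75 over 49 large subunit genes in the fit, with 31 and 48 of them fitted lower. The ratio of small to large subunit counts was 0.695, 0.690, 0.681 and 0.690. In TPM it was 0.730, 0.731, 0.748 and 0.722, so that the 2 genotypes overlapped and library A, lowest in counts, was highest. Between libraries this ratio ranged from 0.681 to 0.695 in counts, where the members' share ranged from 3.87% to 8.94%, and from 0.722 to 0.748 in TPM, where the share ranged from 12.4% to 22.8%.

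Among small subunit genes, Rps27, Rps4x and Rpsa had the lowest fitted values. Rps27, a zinc-finger protein near the ribosome's platform, stood at 594, 283, 167 and 201 CPM, a log2 fold change of -1.25 (SE 0.40; unadjusted p 0.0166). Rps4x had 499, 306, 127 and 219 CPM, a log2 fold change of -1.22 (SE 0.39). Rpsa, which also serves as a laminin receptor, had 2541, 1197, 724 and 1024 CPM, a log2 fold change of -1.10 (SE 0.44). For all 3 genes both WT libraries were above both Tex11PM/Y libraries, but each had an adjusted p of 0.884 in edgeR's quasi-likelihood test. Rpsa shares sequence with the processed copy Rpsa-ps10, which held 18182, 10192, 6953 and 9934 counts, so reads could be split between them.

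Rps29, on chromosome 12 (chr12:69157722-69159186, mm10), did not follow the shared order. It encodes a small zinc-binding protein of the head of the small subunit. The 4 libraries held 224, 250, 127 and 115 CPM, or 236.9 ± 19.01 against 121 ± 8.24 (mean ± SD, n = 2 each). Libraries of a genotype lay close together and the genotypes apart, and WT replicate 2 and library B did not meet as they did for most members. The log2 fold change was -0.97 (SE 0.28; edgeR unadjusted p 0.00993, adjusted p 0.884), and it lay between -1.07 and -0.90 when any 1 library was left out. WT replicate 2 carried higher counts over much of chromosome 12: the 629 other genes tested there were a median of 0.57 log2 above the mean of the other libraries, and Rps29 was 0.75 above. Without that library the fold change of Rps29 was -0.90.

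The other members of chromosome 12, Rps7 and Rpl10l, were 0.44 and 0.57 log2 higher in WT replicate 2 than the mean of the other libraries, against -0.04 for members elsewhere. Rps7 had 1313, 1230, 631 and 893 CPM. On chromosome 8, genes were raised in WT replicate 1, with a median of 0.40 log2 over 919 other genes. Rpl13, which lies there, was 1.46 log2 higher in that library, against 0.97 for members elsewhere. Rpl13 stood at 3055, 1258, 823 and 1312 CPM. Its WT replicate 1 value stood further above the other libraries than that of the typical member.

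Of the members named for their roles, Rps6, Rps19 and the 3 stalk genes lay near the median of the set. Rps6, the target of the S6 kinases, had 1635, 908, 624 and 865 CPM, a log2 fold change of -0.77 (SE 0.39). Rps19, which is mutated in Diamond-Blackfan anemia, had 1285, 677, 447 and 716 CPM, a log2 fold change of -0.75 (SE 0.42). The stalk that recruits elongation factors is built from Rplp0, Rplp1 and Rplp2. Rplp0 had 3223, 1888, 1286 and 1719 CPM, and the log2 fold changes of the 3 stalk genes were -0.77, -0.74 and -0.71. None of these genes differed beyond the spread between libraries, with an adjusted p of 0.884 each in edgeR.

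Rpl5 and Rpl11 are partners: their proteins bind 5S rRNA together, and when ribosome assembly fails they hold back MDM2, the inhibitor of p53. Their mRNAs had different patterns. Rpl11 followed the set with 606, 437, 237 and 412 CPM, a log2 fold change of -0.68 (SE 0.37). Rpl5 stood at 798, 770, 743 and 807 CPM, a log2 fold change of -0.02 (SE 0.30), and 292, 310, 303 and 336 FPKM. Its highest library was 1.09 times its lowest in CPM, the smallest ratio of all 83 members, whose median was 2.59. The fold change turned positive, to 0.049, when scaled by library size alone. The difference between the 2 genes was not tested. Of the exon bases of Rpl5, 46.6% lie under exons of Fam69a on the other strand. The kit is not stated to keep strand, so reads of the 2 genes cannot be told apart there.

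Among large subunit genes, Rpl39 had the lowest fitted value of all members. Its protein, one of the smallest of the ribosome, lines the tunnel through which the new peptide leaves. Rpl39 (chrX:37082520-37085402, mm10) stood at 356, 131, 66.8 and 79.8 CPM. The log2 fold change was -1.73 (SE 0.48; edgeR unadjusted p 0.00833, adjusted p 0.884). Both Tex11PM/Y libraries were below both WT libraries, though WT replicate 1 was far above replicate 2, and without it the log2 fold change was -0.85. With no filter on low counts, Rpl39 was the only member past the threshold, with an adjusted p of 0.00244 in edgeR. Rpl37, the other large subunit gene with an unadjusted p under 0.05, had 706, 446, 273 and 359 CPM, a log2 fold change of -0.87 (SE 0.35; edgeR unadjusted p 0.0416). By fold change Rpl28 came next after Rpl39 among the main large subunit genes with 1173, 538, 281 and 535 CPM, a log2 fold change of -1.07 (SE 0.48), and Rpl8 had 2661, 1568, 916 and 1526 CPM, a log2 fold change of -0.79 (SE 0.42).

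Besides Rpl5, a few abundant large subunit genes varied little. Rpl4, which reaches into the peptide tunnel, had 3542, 2543, 2312 and 2522 CPM, a log2 fold change of -0.33 (SE 0.35). Rpl23 had 688, 554, 497 and 533 CPM, a log2 fold change of -0.27 (SE 0.30). Rpl30 had 421, 357, 279 and 361 CPM, a log2 fold change of -0.28 (SE 0.30), and 54.9% of its exon bases lie under another gene on the opposite strand. For each of them the spread over libraries was smaller than that of the typical member. These 3 genes were named after their values were seen.

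The 4 X-linked members, Rps4x, Rpl39, Rpl10 and Rpl36a, were all high in WT replicate 1, by 1.29, 2.00, 1.20 and 1.13 log2 over the mean of the other libraries. Members elsewhere were 0.97 higher there, and the 641 other X-linked genes tested were at -0.06. Rpl10, whose protein is added to the large subunit late in assembly, had 818, 425, 255 and 417 CPM, a log2 fold change of -0.89 (SE 0.42). Rpl36a had 355, 194, 123 and 181 CPM, a log2 fold change of -0.85 (SE 0.38). In that library the X-linked members lay closer to the ribosomal protein genes of other chromosomes than to the other genes of the X.

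Most of the paralogs whose names end in l did not share the full order of the set. Only 1 of the 6 in the fit had WT replicate 1 above and library A below both others, near the share of all genes (21.3%). Library A was the lowest for 4 of the 6 (34.4% of all genes). The median log2 fold change of the 6 was -0.22, against -0.74 for the 75 main genes in the fit. Rpl39l, the paralog of Rpl39 found mainly in germ cells, stood at 81.3, 101, 59.9 and 98.9 FPKM, while Rpl39 stood at 417, 169, 88.5 and 106 FPKM. The paralog therefore reached 19.5% of its main gene's level in WT replicate 1, 59.4% in WT replicate 2, 67.6% in library A and 93.5% in library B. Rpl39l itself had a log2 fold change of -0.30 (SE 0.34; edgeR adjusted p 0.894).

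Rps4l, an autosomal copy of Rps4x, stood at 252, 288, 210 and 363 FPKM, and Rps4x at 385, 258, 108 and 192 FPKM. Rps4l was thus 65.5% of Rps4x in WT replicate 1, 112% in WT replicate 2, 194% in library A and 189% in library B, above its main gene in 3 of 4 libraries. Rpl10l, which replaces Rpl10 when the X is silenced in meiosis, stood at 68.7, 131, 94.4 and 98.8 FPKM, or 9.49%, 31.3%, 37.6% and 23.3% of Rpl10. It was highest in WT replicate 2, where its chromosome was raised. The log2 fold changes were -0.01 (SE 0.34) for Rps4l and -0.13 (SE 0.34) for Rpl10l. Both changed sign under some other scalings: with log2(TPM + 1), where the median of all genes was 0.19, they were 0.15 and 0.15.

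Rps27l, a target of p53, kept nearer to its main gene, at 13.2%, 16.6%, 19.9% and 26.6% of Rps27 in FPKM, and was itself 168, 111, 80.1 and 130 FPKM. Rpl3l, a paralog of Rpl3 known from striated muscle, was low, at 1.15, 3.46, 0.745 and 5.02 FPKM, between 0.0963% and 0.767% of Rpl3. Its order of libraries was its own, with library B highest, and its log2 fold change of 0.26 had an SE of 0.91. It changed sign with log2(FPKM + 0.1), to -0.02. Rpl3 stood at 1195, 668, 388 and 655 FPKM. Rpl6l had 3.98, 1.70, 1.35 and 1.38 FPKM, a log2 fold change of -1.11 (SE 0.72), and Rpl32l, with 0.668, 0.150, 0.263 and 0.196 FPKM, did not pass the filter. As a share of its main gene, the paralog was lowest in WT replicate 1 in 5 of the 7 pairs. In the other 2 it was highest there: Rpl6l was 0.298%, 0.180%, 0.239% and 0.147% of Rpl6, and Rpl32l was 0.0337%, 0.0104%, 0.0335% and 0.0143% of Rpl32. Copies of this kind share sequence with their main gene, so part of their reads could belong to either.

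**Figure D4:**
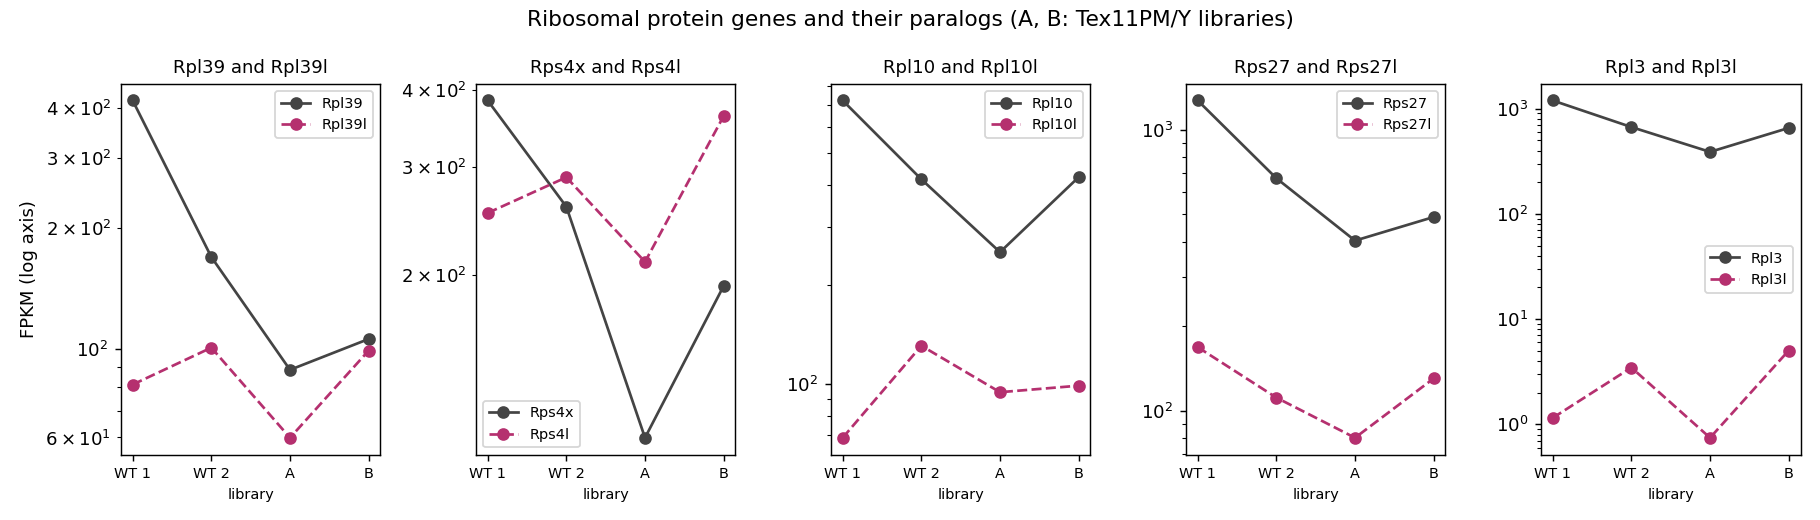
FPKM (log axis, scaled per panel) of 5 ribosomal protein genes (grey, solid) and their paralogs (purple, dashed) in WT replicates 1 and 2 and Tex11PM/Y libraries A and B. Rps4l lies above Rps4x in 3 libraries, and Rpl39l approaches Rpl39 in library B, at 93.5% of its level.

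A measure of how members departed from the set was taken as follows: from log2(FPKM + 0.1) of each gene its own mean was subtracted, and then the median of the main genes in each library. The range of what remained over the 4 libraries had a median of 0.33 log2 over the 83 members. It was smallest for Rpl14 at 0.04. The widest were Rpl3l at 2.65, Rpl10l at 1.66, Rpl39 at 1.36, Rpl5 at 1.26, Rps4l and Rpl32l at 1.14, and Rps29 at 1.10. Of these 7 genes, 4 are paralogs ending in l, and Rpl10l and Rps29 lie on chromosome 12. They were named after their values were seen.

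For 3 members the count table held far fewer reads than their FPKM. Rpl24 had 3, 2, 9 and 4 counts, but 736, 488, 297 and 432 FPKM. Rps10 had 34, 29, 56 and 33 counts, but 1266, 1111, 726 and 1165 FPKM. Rpl13a had 1456, 783, 509 and 708 counts, but 2219, 1420, 999 and 1531 FPKM. Counts scaled to length and library size were under 0.1 of the FPKM for these 3 and for no other member. In the GENCODE M21 basic annotation, whose exon lengths equal those of the count table for 98.3% of genes, 71.5% of the exon bases of Rpl24, 54.3% of Rps10 and 54.9% of Rpl13a lie under exons of other genes. The partners on the same strand (Gm28037 for Rpl24, the readthrough gene RPS10-NUDT3 for Rps10 and Gm45713 for Rpl13a) had 0 counts in every library.

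The FPKM of these 3 genes followed the other members, highest in WT replicate 1 and lowest in library A. Rps10, whose fitted log2 fold change on counts was 0.40 (SE 0.68), had -0.37 (SE 0.41) with limma on log2(FPKM + 1). On that scale Rpl24 had -0.74 (SE 0.39) and Rpl13a -0.52 (SE 0.45). Without the 3 genes the median of the members remained -0.74.

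A list of 6 ribosomal protein genes and paralogs outside the name rule, Fau and Rack1 among them, had a median log2 fold change of -0.27, with 5 fitted lower, closer to 0 than the members' median. Rps3a1 had 1324, 965, 769 and 994 CPM, a log2 fold change of -0.38 (SE 0.34). Fau had 800, 535, 288 and 458 CPM, a log2 fold change of -0.84 (SE 0.37), and Rack1 had 2508, 1146, 743 and 1318 CPM, a log2 fold change of -0.83 (SE 0.48). In all 3, as in most members, WT replicate 1 was highest and library A lowest. The 58 tested copies named as ribosomal protein pseudogenes had a median log2 fold change of -0.89, with 50 fitted lower, and of -0.16 without WT replicate 1. All 306 such copies together took 0.146%, 0.0755%, 0.0530% and 0.0689% of counts. Of these 27865, 14654, 10236 and 13655 counts, Rpsa-ps10 alone held 18182, 10192, 6953 and 9934.

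No gene of any companion list passed the threshold in edgeR (0% of all genes). The 25 other TOP mRNAs, for translation factors and similar proteins, had a median log2 fold change of -0.33, with 19 fitted lower and 2 at an unadjusted p under 0.05. Of all genes, 49.0% were fitted lower and 1.71% were lower at that p. The 2 were Eif3f, with 796, 417, 269 and 362 CPM, and Tpt1, with 1426, 891, 589 and 691 CPM. The 77 mitochondrial ribosomal protein genes tested had a median of -0.17, with 52 fitted lower and 0 at an unadjusted p under 0.05. Without WT replicate 1 the median of the TOP mRNAs was -0.083, and without library A that of the mitochondrial genes was 0.017. The genes that build ribosomes had medians of the other sign: 0.16 over 32 assembly factors, with 26 fitted higher, and 0.13 over 14 RNA polymerase I genes, with 9 fitted higher. Neither list had a gene at an unadjusted p under 0.05. Without WT replicate 1 the median of the assembly factors was 0.031, beside 0.031 over all genes in that fit. Tsr1, which matures the small subunit, had 64.9, 96.1, 141 and 119 CPM. Nop10 had 54.7, 39.0, 17.7 and 32.5 CPM, highest in WT replicate 1 and lowest in library A like most ribosomal protein genes. Dkc1, the pseudouridine synthase dyskerin, had 48.3, 74.9, 134 and 67.1 CPM, and Polr1a, the largest polymerase I subunit, 103, 161, 235 and 165 CPM. Tsr1, Dkc1 and Polr1a were lowest in WT replicate 1 and highest in library A. The 15 genes of mTORC1 and TOP translation control had a median of 0.08 (-0.021 without library B), with 12 fitted higher, and Larp1 had 491, 497, 739 and 527 CPM. The 10 genes of the MYC network had a median near 0, with 5 fitted lower and 5 fitted higher. Myc, the gene of smallest p in that list, had 11.6, 4.80, 1.46 and 3.04 CPM, a log2 fold change of -1.86 (SE 0.74; edgeR unadjusted p 0.0387, adjusted p 0.884). Mycn, which was more abundant, went the other way. It had 50.2, 98.2, 111 and 108 CPM, a log2 fold change of 0.57 (SE 0.38).

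**Figure D5:**
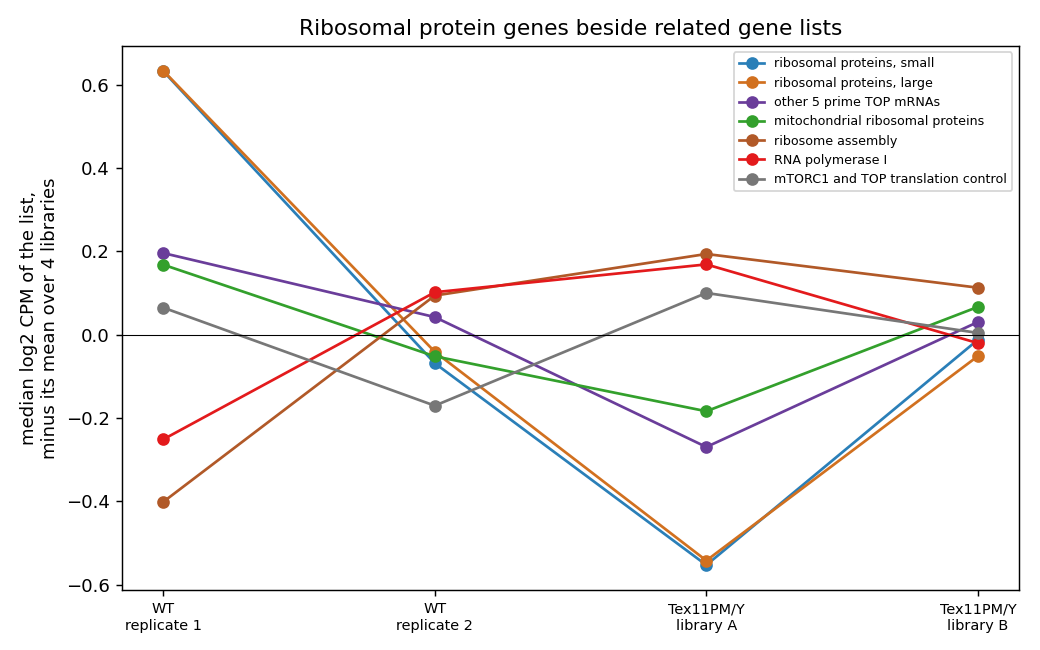
Median log2 CPM of each gene list in the 4 libraries, less its mean over them. Ribosomal protein genes are highest in WT replicate 1 and lowest in Tex11PM/Y library A, and ribosome assembly and RNA polymerase I genes are lowest in WT replicate 1 and highest in library A.

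Length did not separate the members from each other. The 41 fitted members of at most 1000 bases had a median log2 fold change of -0.75 and the 40 longer members -0.72. All 1677 tested genes of at most 1000 bases had a median of -0.06.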

How the data were processed

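The authors deposited 3 tables, with whole-number read counts of 55335 genes, FPKM values and TPM values, per the file headers. Per the submitters' processing notes, the tools were STAR, fastp, StringTie, featureCounts and DESeq2 and the build was mm10, with no roles or versions. The 2 Tex11PM/Y columns have identical names, so they are called A and B by column order.

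Differences were tested on the counts with edgeR 4.0.16 in R 4.3.3: filterByExpr, TMM, robust quasi-likelihood fits with genotype alone, and p-values adjusted over 17262 genes by Benjamini-Hochberg (threshold 0.05). The procedure was tested on simulated data with less spread between libraries than these, so its power to detect differences here was not tested. The biological coefficient of variation was 43.4%. Log2 CPM had a prior count of 2. Overlaps of gene models came from GENCODE M21.

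Members and lists were chosen with earlier results of these data known. Named were the 3 most abundant genes of each subunit, the 3 lowest and 2 highest fold changes of each, paralog pairs, members of chromosomes X, 8 and 12, members with fixed roles, those outside the fit, and up to 4 of each companion list by smallest p. Any other gene was named with its values known.

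The alternatives replaced edgeR by DESeq2 1.42.0 or TMM by that tool's size factors or by library size, removed the count filter or asked for at least 1 CPM in 2 libraries, or used limma 3.58.1 on log2 FPKM (pseudocounts 1 and 0.1) or log2 TPM (pseudocount 1) of genes with a mean of at least 0.5. Others added pseudogene reads, dropped members of chromosomes 8 and 12, or left out each library. Dropping the 3 members with few counts for their FPKM was added after the data were seen. Of the genes these rules took, 2 are not reported here, though they count in the totals.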

Additional observations from a re-analysis of the deposited data

How the results depend on the processing

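The median log2 fold change of the members stayed below 0 in every alternative run. With 1 library left out it ran from -1.11 (without library B) to -0.34 (without WT replicate 1), from -1.05 to -0.30 for the small and from -1.13 to -0.35 for the large subunit, and 78 to 81 members were then fitted lower. With log2(TPM + 1), where the median of all genes was 0.19, it was -0.48, or -0.67 relative to all genes. Genes past the threshold numbered 0 in the reported fit, 2 with DESeq2, 50 with no count filter (16 higher, 34 lower), and 0 to 518 with 1 library left out. The 518 came without library B (74 higher, 444 lower), which leaves library A alone, assumed to vary like the WT libraries. Members past the threshold numbered 0, except 1 (Rpl39) with no count filter, and 0 with any 1 library left out. No paired analysis was possible because the Tex11PM/Y columns carry no replicate numbers of their own.

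Some members near 0 changed sign, with none past the threshold. The FPKM scale with pseudocount 1, the TPM scale and the FPKM scale with pseudocount 0.1 gave, in that order, 0.027, 0.15 and 0.028 for Rpl10l, 0.087, 0.21 and 0.087 for Rpl5, 0.034, 0.15 and 0.033 for Rps4l, and -0.37, -0.25 and -0.37 for Rps10. The last of these scales gave -0.021 for Rpl3l. Library size alone gave 0.049 for Rpl5 and 0.054 for Rps4l, and at least 1 CPM in 2 libraries gave 0.0034 for Rps4l. With 1 library left out, Rpl10l ran from -0.49 to 0.29, Rpl5 from -0.12 to 0.044, Rps4l from -0.49 to 0.33, Rps10 from -0.035 to 0.69 and Rpl3l from -1.41 to 1.14.

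Shares by TPM were 22.8%, 16.7%, 12.4% and 15.8% (WT replicate 1, WT replicate 2, library A, library B). The ratio of small to large subunit was 0.716, 0.708, 0.699 and 0.707 with pseudogene reads added, 0.730, 0.731, 0.748 and 0.722 in TPM, and 0.737, 0.693, 0.695 and 0.711 without chromosomes 8 and 12. Most of the pseudogene reads were those of Rpsa-ps10, counted with the small subunit.

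Of the companion lists, ribosomal protein genes outside the name rule had medians of -0.62, -0.50 and -0.62 on the 3 scales above, mTORC1 genes 0.18, 0.31 and 0.20, and MYC genes 0.058, 0.19 and 0.088 (0.052 with library size alone). In TPM, assembly factors had 0.38, RNA polymerase I genes 0.44 (0.33 in FPKM with pseudocount 0.1) and mitochondrial ribosomal proteins 0.066. With 1 library left out the medians ran from -0.56 to -0.083 for other TOP mRNAs, 0.031 to 0.37 for assembly factors, -0.021 to 0.13 for mTORC1 genes, -0.081 to 0.059 for MYC genes, -0.31 to 0.017 for mitochondrial ribosomal proteins and -1.52 to -0.16 for pseudogenes. The cause of these shifts was not tested.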
